A study of Mus musculus with 12 samples.

Results

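Female primordial germ cell-like cells (PGCLCs) that had spent 6 days aggregated with somatic cells of the gonad were compared with female PGCLCs taken at day 6 of induction. The aggregated cells, called d3ag6 here, were day 3 PGCLCs joined for 6 days with somatic cells of female E12.5 gonads, and the day 6 cells, called d6 female, had been induced for 6 days and not aggregated. The arrays were chosen by their labels, which gave 2 arrays of each group, 4 of the 12 arrays of the series. The d3ag6 cells were 3 days older than the d6 female cells and differed from them in the aggregation as well. The effects of time and of the somatic cells cannot be told apart. Both groups were C57BL/6, female and carried BVSC, a pair of reporter transgenes in which Blimp1 (Prdm1) regulatory sequence drives mVenus and stella (Dppa3) regulatory sequence drives ECFP. Both were induced from embryonic stem (ES) cells and sorted by reporter fluorescence before RNA extraction, and cDNA from 5 ng of RNA, about 500 cells, was amplified by PCR with 12 cycles in the initial round and labelled for Affymetrix mouse expression arrays. The arrays of a group are called biological replicates in the labels, which do not say whether they came from separate ES cell lines or inductions, so p-values measure the spread between these samples. Beside the values of these 4 arrays, those of female day 3 PGCLCs (d3, the same strain and transgenes) and of primordial germ cells (PGCs) of female E12.5 embryos (mixed C57BL/6 and BDF1 background with a stella-EGFP transgene) are given without a test, 2 arrays each.

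Primordial germ cells are the embryonic founders of eggs and sperm. After they enter the gonad they switch on a set of late germ cell genes, among them the RNA helicase gene Ddx4 and the RNA-binding protein gene Dazl, and those of a female gonad then stop dividing and enter meiosis. Retinoic acid and the protein STRA8 act at that entry, after which the synaptonemal complex, a protein axis that holds paired chromosomes together, and the enzymes of recombination are made. Before that stage, PGCs and PGCLCs share a core of pluripotency genes with ES cells, where the cytokine LIF acts through STAT3.

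A value here is a log2 signal of a probe set, a group of probes for 1 transcript, after quantile normalization between arrays, so that a difference of 1 is a 2-fold change. Of 45037 probe sets other than controls, 25610 were tested, those above 4.81, the median of all values, on at least 2 of the 12 arrays. A gene bright in 1 group alone passes through the 2 arrays of that group and can hardly be called the other way. Counts, shares and medians of lists below carry this limit. The filter, the normalization and the spread behind each p-value also used the other 8 arrays, among them those of E9.5 PGCs and male day 6 PGCLCs, whose replicates carry different array codes in the labels. A gene was read from its brightest probe set over all arrays, and 13435 of 18192 genes had a tested one. Correlations over probe sets were 0.971 between the d3ag6 arrays and 0.97 between the d6 female arrays, against 0.955 to 0.964 between arrays of different groups. The PGC genes that the reporters rest on were high on all 4 arrays: Dppa3 had 13.15 and 13.16 in d3ag6, against 13.10 and 12.97 in d6 female, and Prdm1 had 10.64 and 10.19 in d3ag6, against 10.71 and 10.72 in d6 female. The 12 measured genes of the germ cell marker list were all above 4.81 on the 4 arrays, with a summed signal of 15.36 and 15.26 in d3ag6 and 15.18 and 15.17 in d6 female (log2). In bulk samples of sorted cells, fewer cells of a type and less RNA per cell cannot be told apart.

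Single arrays stood apart in a few genes of other tissues, which were picked out after their values were seen. Alb, which encodes albumin of the liver, had 3.21 and 11.12 in d3ag6 replicates 1 and 2, against 3.55 and 3.92 in d6 female. Other secreted liver proteins were high on the same array: Fgg had 2.75 and 7.22 in d3ag6, against 3.04 and 3.53 in d6 female, and Ttr had 6.86 and 10.10 in d3ag6, against 6.74 and 6.61 in d6 female. Not all genes of the liver were high there. Afp had a mean of 4.4 in d3ag6 (SD 0.04), against 4.46 in d6 female. Hnf4a had 6.62 (SD 0.06), against 6.79. The endothelial genes Cdh5, at 4.95 and 4.69 in d3ag6 and 8.02 and 5.67 in d6 female, and Pecam1, at 5.98 and 5.56 in d3ag6 and 9.32 and 7.43 in d6 female, were highest in d6 female replicate 1. Pecam1 is also on the list of PGC surface genes. The endothelial genes Emcn, Egfl7 and Flt1 were close between the d6 female arrays, with SDs of 0.07, 0.03 and 0.04. Cd14, a receptor of monocytes, had 6.20 and 6.80 in d3ag6 and 1.95 and 8.10 in d6 female. In d3ag6, 40 of the tested genes differed by more than 2 between replicates, and in d6 female 38 did. Counts are therefore given below also with each of the 4 arrays left out in turn, where the lone array of a group is assumed to vary like the other groups.

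Between the groups, 901 of the 25610 tested probe sets differed at an adjusted p under 0.05 (limma, Benjamini-Hochberg), 3.52%, of which 574 (2.24%) were higher and 327 (1.28%) were lower in d3ag6. Read by gene, 588 of 13435 genes were called, 4.38%, with 375 (2.79%) higher and 213 (1.59%) lower. Of these, 220 had several tested probe sets. In 71 of the 220 another probe set was called the same way, and in 0 a probe set was called the other way. The calls given below for gene lists are to be read against these shares of 4.38% called, 2.79% higher and 1.59% lower. At an unadjusted p under 0.05, 12.6% of the tested genes were higher and 9.33% lower, and the counts at that p given below for gene lists are to be read against these shares. Most calls were lost when an array was left out. In such fits, 170 and 231 probe sets were called without d6 female replicates 1 and 2, and 246 and 134 without d3ag6 replicates 1 and 2. Of the genes, 69 (0.514%) were called in the full fit and without each of the 4 arrays, 47 higher (0.35%) and 22 lower (0.164%) in d3ag6. Without quantile normalization the split was 766 higher and 267 lower, 74.2% higher against 63.7% in the main fit, and the median of all changes moved to 0.07, against -0.009. The arrays of the groups did not overlap for 58.8% of the tested genes, so that a lack of overlap alone says little of a gene.

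**Figure D1:**
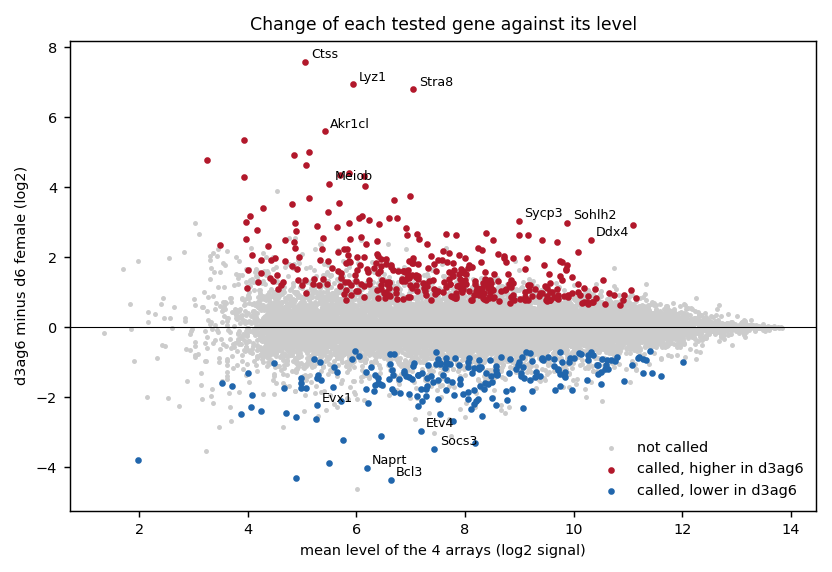
Each point is a tested gene, with its mean level over the 4 arrays (log2 signal) on the x axis and d3ag6 minus d6 female (log2) on the y axis. Red points are the 375 genes called higher and blue points the 213 called lower in d3ag6, and Stra8, Lyz1 and Ctss lie at the top.

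The share of called genes was highest at middle levels. Among genes with a mean of 7 to 9, 143 were higher and 86 lower in d3ag6, 6.21% of 3690. Among those with a mean of 11 to 14, 3 were higher and 10 lower, 0.995% of 1307. The X chromosome had 444 tested genes, of which 17 were higher and 10 lower in d3ag6, with a median change of 0.07, against 0.007 for all genes. Xist, the RNA that coats an inactive X chromosome, had 5.14 and 5.97 in d3ag6, against 5.58 and 5.59 in d6 female (change -0.03, SE 0.29, adjusted p 0.975), near the middle of all values.

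The largest rise by the ranking used, in which values below 4.81 count as 4.81, was that of Stra8 (chromosome 6). Its level was 10.24 and 10.66 in d3ag6, against 3.49 and 3.81 in d6 female. Both d3ag6 arrays were high and both d6 female arrays were below the median of the array. The change was 6.80 (SE 0.37, adjusted p 0.000236, limma), and 5.64 with the dim values set to 4.81. The level in d3ag6 was near that of E12.5 PGCs, 10.16 and 9.92, while d3 cells had 4.46 and 4.11.

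Of the genes that rose in d3ag6 and were called without each array, 46 had a symbol that is not provisional, and the 15 with the largest rise held other genes of meiosis and germ cells. Sycp3, which forms the lateral element of the synaptonemal complex, had 10.53 and 10.50 in d3ag6, against 7.74 and 7.18 in d6 female (change 3.05, SE 0.26, adjusted p 0.0013). Tex12, of its central element, had 8.31 and 8.28 in d3ag6, against 5.42 and 4.93 in d6 female (change 3.12, SE 0.28, adjusted p 0.00165). Meiob, a single-strand DNA-binding protein of meiotic recombination, had 7.35 and 7.75 in d3ag6, against 3.16 and 3.75 in d6 female (change 4.10, SE 0.41, adjusted p 0.00264). In each of these genes both d3ag6 arrays were higher than both d6 female arrays by more than 2. E12.5 PGCs had 9.27 and 9.28 for Tex12 but 4.66 and 4.56 for Meiob, which is below d3ag6. Sohlh2, a transcription factor of early germ cells and oocytes, had 11.27 and 11.50 in d3ag6, against 8.35 and 8.43 in d6 female (change 2.99, adjusted p 0.00153). Tcfl5, a basic helix-loop-helix factor, had 8.0 and 7.78 in d3ag6, against 5.02 and 4.84 in d6 female (change 2.96, adjusted p 0.00108), with 10.40 and 9.92 in E12.5 PGCs.

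The other genes of that ranking came from signalling, metabolism and other cells. Hesx1, a homeobox repressor known from the forebrain and the pituitary, had 8.22 and 8.83 in d3ag6, against 4.94 and 4.81 in d6 female (change 3.65, SE 0.24, adjusted p 0.00055). Akr1cl, of the aldo-keto reductases, had 8.07 and 8.36 in d3ag6, against 2.99 and 2.24 in d6 female (change 5.6, SE 0.34, adjusted p 0.000407). For both genes the d3ag6 arrays stood above those of the other cells shown, since E12.5 PGCs had 5.65 and 5.57 for Hesx1 and 4.77 and 5.26 for Akr1cl. Rasgrp1, an activator of Ras, had 8.24 and 8.38 in d3ag6, against 4.32 and 3.64 in d6 female (change 4.33, adjusted p 0.00153). Rgs2, which shortens G protein signalling, had 7.53 and 8.21 in d3ag6, against 3.44 and 3.58 in d6 female (change 4.36, adjusted p 0.00319), on 1 of its 3 tested probe sets. Greb1l, Dock3, a Rac activator, and Rnf130, a ubiquitin ligase, rose by 3.76, 3.06 and 2.71, the last on 1 of 3 tested probe sets, which ranged from -0.31 to 2.71. The remaining genes of the 15, Lyz2 and Amhr2, are markers of other cells and are described with them below.

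The 15 largest falls, of 22 genes called lower also without each array, were led by genes of the LIF and STAT3 list. Bcl3, an IkB family coactivator, had 4.68 and 4.23 in d3ag6, against 8.59 and 9.02 in d6 female (change -4.35, SE 0.34, adjusted p 0.00108). Naprt, which makes a precursor of NAD from nicotinic acid, had 4.04 and 4.31 in d3ag6, against 8.06 and 8.32 in d6 female (change -4.01, SE 0.17, adjusted p 4.77e-05), the lowest adjusted p among the 30 genes ranked. Both genes were below the median of the array in d3ag6 and in E12.5 PGCs, which had 3.99 and 3.66 for Bcl3 and 3.82 and 3.81 for Naprt, and were bright in d3 cells, at 8.37 and 8.18 for Bcl3 and 8.47 and 8.49 for Naprt. Prkch, a protein kinase C, had 6.12 and 6.97 in d3ag6, against 9.87 and 9.82 in d6 female (change -3.30, adjusted p 0.00264), on 1 of 2 tested probe sets, the other at -1.17. Etv4, an ETS factor induced by FGF signalling, had 5.83 and 5.58 in d3ag6, against 8.67 and 8.66 in d6 female (change -2.96, SE 0.18, adjusted p 0.000407). Its level in E12.5 PGCs was high, at 9.01 and 9.11, so that the d3ag6 arrays were lower than those of the cells shown beside them. A second tested probe set of Etv4 gave -0.58 and was not called.

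**Figure D2:**
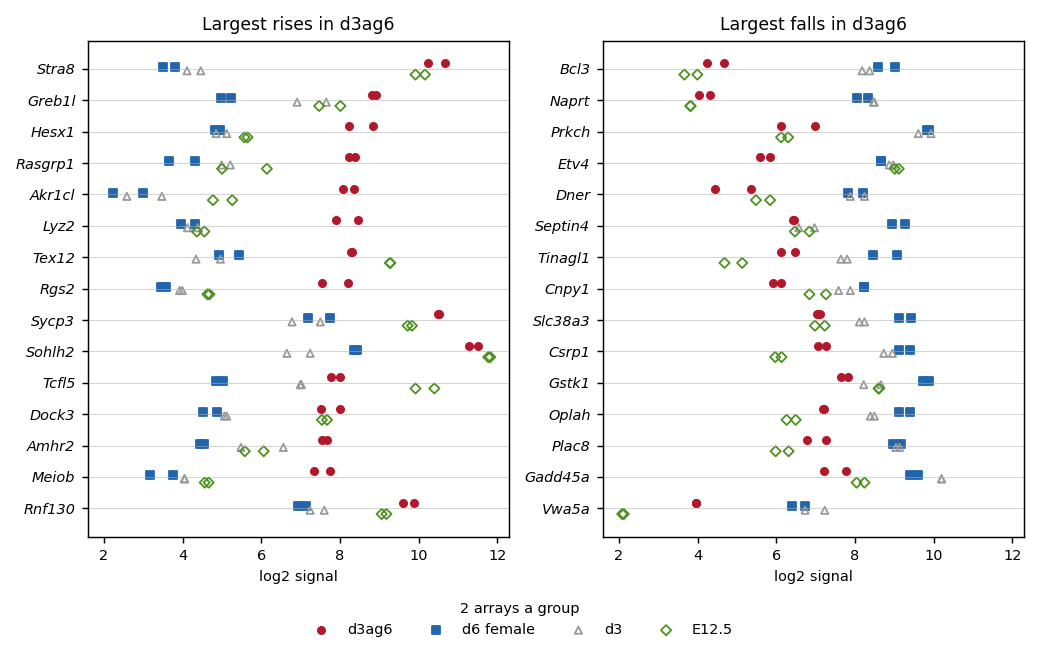
Levels (log2 signal, x axis) of the 15 largest rises (left) and 15 largest falls (right) in d3ag6 on each array, with d3ag6 as red circles, d6 female as blue squares, d3 as open grey triangles and E12.5 PGCs as open green diamonds. The E12.5 arrays lie beside d3ag6 for Stra8, Bcl3 and Naprt, and beside d6 female for Hesx1 and Etv4.

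Of the other falls, Dner, a Notch ligand of neurons, had 5.35 and 4.45 in d3ag6, against 8.19 and 7.82 in d6 female (change -3.11, adjusted p 0.00319), with both tested probe sets called. Septin4, a cytoskeletal GTPase, had 6.43 and 6.45 in d3ag6, against 8.94 and 9.28 in d6 female (change -2.67, adjusted p 0.00122), also on both probe sets. Its d3ag6 level was that of d3 cells, 6.57 and 6.97, so that here d6 female stood apart. Vwa5a fell by 2.62 and Tinagl1, a matrix protein, by 2.47. Metabolic genes among them were Oplah, which makes glutamate from oxoproline (change -2.05), the glutathione transferase gene Gstk1 (-2.06) and the glutamine transporter gene Slc38a3 (-2.20, with a second probe set at 0.23). Cnpy1, Csrp1, Plac8 and the DNA damage response gene Gadd45a completed the ranking, with changes of -2.23, -2.11, -2.05 and -2.02.

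In the list of genes of the retinoic acid response, 4 of 18 tested members rose and none fell (limma; 6 higher and 1 lower at an unadjusted p under 0.05), with a median change of 0.41, against 0.007 over all genes. The list had 24 members, of which 21 were on the arrays. Beside Stra8, the gene of the meiotic cohesin Rec8 had 9.14 and 9.38 in d3ag6, against 8.03 and 8.38 in d6 female (change 1.06, adjusted p 0.0346). Of the tested genes for enzymes of retinoid metabolism on this list, Aldh1a2 and Dhrs3 rose, while Rdh10 (change 0.08, adjusted p 0.885) and Cyp26a1 (change -0.32, adjusted p 0.73) were not called. Aldh1a2, which makes retinoic acid from retinal, had 8.22 and 8.56 in d3ag6, against 6.72 and 5.98 in d6 female (change 2.04, adjusted p 0.0192). Dhrs3, which turns retinal back to retinol, had 5.45 and 5.83 in d3ag6, against 1.28 and 0.43 in d6 female (change 4.79, adjusted p 0.0109), but 0.83 with dim values set to 4.81. Groups did not overlap for any of the 4. Rarb, a receptor gene that retinoic acid induces in many cells, was dim, at 3.82 and 4.29 in d3ag6 and 3.09 and 3.54 in d6 female, and was not called (change 0.74, adjusted p 0.453). Cyp26b1, which breaks retinoic acid down, was listed at 0 on the 4 arrays, and Aldh1a1 and Aldh1a3 were too dim to be tested. Stra8 was called without each array, with adjusted p from 0.00196 to 0.00729, while Aldh1a2, Dhrs3 and Rec8 reached adjusted p of 0.141, 0.0897 and 0.236. The list had 2 members called without d6 female replicate 1, and 1 without any other of the 4 arrays.

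Genes of the synaptonemal complex and the meiotic axis gave the highest share of calls among the germ cell lists: 9 of 17 tested members rose, 52.9%, and none fell (14 higher and 0 lower at an unadjusted p under 0.05), with a median of 1.36. To Sycp3, Tex12 and Rec8, described above, were added Syce1, of the central element, at 9.26 and 9.59 in d3ag6, against 7.29 and 7.14 in d6 female (change 2.21, adjusted p 0.00237). Hormad1, an axis protein that marks unpaired chromosomes, had 9.11 and 9.22 in d3ag6, against 6.72 and 6.30 in d6 female (change 2.65, adjusted p 0.0139). Its arrays did not overlap, and neither did those of the meiotic cohesin genes Smc1b and Stag3, which rose by 2.50 and 1.36. Sycp1, the transverse filament that bridges the paired axes, had 6.30 and 6.69 in d3ag6, against 4.43 and 4.04 in d6 female (change 2.25, adjusted p 0.0168), with 8.35 and 8.74 in E12.5 PGCs. Meioc, a gene of meiotic prophase, rose by 2.79. Sycp2, the partner of Sycp3, was not called, with 6.12 and 5.94 in d3ag6 and 4.62 and 4.17 in d6 female (change 1.63, adjusted p 0.051). Syce2 was bright and close in both groups, at 12.69 and 12.73 in d3ag6 and 12.60 and 12.72 in d6 female (change 0.05, adjusted p 0.905). Between 3 and 5 members were called with 1 array left out, 3 of them without d3ag6 replicate 2. Sycp3, Tex12 and Syce1 were called without each array.

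Fewer genes of meiotic recombination were called: 2 of 17 tested members rose and none fell (6 higher and 0 lower at an unadjusted p under 0.05), with a median of 0.42, and both were called without each array. They were Meiob and Spo11, the enzyme that makes the meiotic DNA breaks, at 7.36 and 6.99 in d3ag6, against 5.72 and 5.53 in d6 female (change 1.55, adjusted p 0.00624). Dmc1, the meiotic strand exchange protein, had 7.49 and 7.63 in d3ag6, against 7.56 and 7.35 in d6 female, which overlap (change 0.11, adjusted p 0.856). Msh4, which acts at crossovers, had 4.89 and 5.80 in d3ag6, against 2.70 and 3.74 in d6 female (change 2.13, adjusted p 0.0506). Prdm9, which places the breaks, was near the median of the array, at 4.90 and 5.12 in d3ag6 and 4.47 and 4.70 in d6 female (change 0.42, adjusted p 0.587).

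The piRNA pathway, which silences transposons in germ cells with small RNAs, had 7 of 19 tested members higher in d3ag6, 36.8%, and none lower (14 higher and 0 lower at an unadjusted p under 0.05). Changes of the 19 ran from 0.06 to 2.64, with a median of 1.21. Ddx4, a helicase of the germ granule that processes piRNA precursors, had 11.55 and 11.59 in d3ag6, against 9.17 and 8.96 in d6 female (change 2.51, SE 0.29, adjusted p 0.00524). Mael had 10.47 and 10.46 in d3ag6, against 7.94 and 7.72 in d6 female (change 2.64, SE 0.33, adjusted p 0.00702). In both genes the arrays of the groups lay far apart, and E12.5 PGCs were higher than d3ag6, at 12.51 and 12.55 for Ddx4 and 11.98 and 11.97 for Mael. Gpat2 rose by 2.44, the helicase gene Mov10l1 by 2.08, Asz1 by 1.83, the Tudor domain gene Tdrd7 by 1.64 and Tex19.2 by 1.14. Piwil2, which carries piRNAs, had 9.80 and 9.92 in d3ag6, against 8.6 and 8.36 in d6 female, and was not called (change 1.38, adjusted p 0.0685). The list had 2 members called without d3ag6 replicate 2, and 4 without any other of the 4 arrays. Of Ddx4, Mael and Gpat2, the adjusted p of Mael reached 0.0548 with an array left out, and those of Ddx4 and Gpat2 were at most 0.0463 and 0.0359.

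Of 15 tested genes for germ cell RNA-binding proteins, 3 rose and none fell (6 higher and 0 lower at an unadjusted p under 0.05), and the median was -0.07. They were Ddx4, Ybx2, which stores germ cell mRNA, and Dazl. Dazl, which licenses PGCs to follow the gonad's signals, had 12.61 and 12.52 in d3ag6, against 10.00 and 9.26 in d6 female (change 2.93, SE 0.62, adjusted p 0.0402), and both of its tested probe sets were called. The d3ag6 arrays were near the 12.96 and 13.04 of E12.5 PGCs, and d3 cells were lower than either, at 8.28 and 7.13. With any 1 of the 4 arrays left out, the adjusted p of Dazl was between 0.14 and 0.192 and the gene was not called. Among other late germ cell genes, 6 of 16 rose and none fell (9 higher and 1 lower at an unadjusted p under 0.05), with a median of 1.26: Sohlh2, Slc25a31, a mitochondrial ADP/ATP carrier of germ cells, Stk31, Tex14, of the bridges between germ cells, Brdt, a bromodomain protein, and Dmrt1. Slc25a31 had 10.37 and 10.24 in d3ag6, against 8.0 and 7.34 in d6 female (change 2.64, adjusted p 0.00264). Stk31 had 10.70 and 10.71 in d3ag6, against 8.88 and 8.72 in d6 female (change 1.91, adjusted p 0.00359). Sohlh2, Slc25a31 and Stk31 were called without each array.

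**Figure D3:**
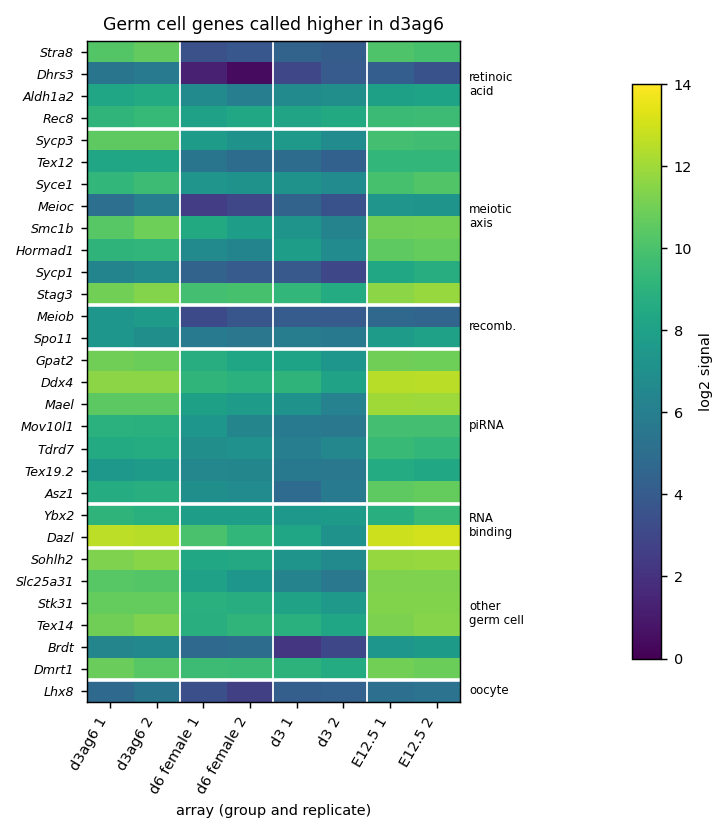
Level (colour, log2 signal) of the germ cell genes that rose in d3ag6, one row a gene and one column an array, with d3ag6 first, then d6 female, d3 and E12.5 PGCs. Rows were chosen for their rise between the first 4 columns, and Meiob and Dhrs3 are the rows where E12.5 PGCs are dimmer than d3ag6 by more than 1.

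Taking the 5 lists of meiotic axis, recombination, piRNA, RNA-binding and other late germ cell genes as one, without repeats, 26 of 83 tested genes rose, 31.3%, and none fell, against 2.79% and 1.59% over all genes. These lists were chosen with earlier results of these data known, and genes bright in d3ag6 alone could enter the test through its arrays. The share is therefore a description and no independent support. The median change of the 83 was 1.04. Another 13 genes of these lists were on the arrays and were too dim to be tested. With an array left out, 13 were called without d6 female replicate 1, 13 without d6 female replicate 2, 14 without d3ag6 replicate 1 and 10 without d3ag6 replicate 2. Of the 26, 10 were called in each of these fits. Among 16 tested genes of oocytes, 2 rose and none fell (4 higher and 1 lower at an unadjusted p under 0.05). They were Sohlh2 and the homeobox gene Lhx8, which had 4.8 and 5.42 in d3ag6, against 3.42 and 2.67 in d6 female (change 2.07, adjusted p 0.0113). Figla, which switches on the zona pellucida genes, had 6.64 and 7.0 in d3ag6, against 5.84 and 5.54 in d6 female, and was not called (change 1.12, adjusted p 0.0938).

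Promoters of 23 of these 26 genes were in the RefSeq reference table (GRCm38.p6), and the 250 bases before the start were searched on both strands for TCCCGC, the core of sites of E2F6, CACGTG, an E-box read by MAX and MGA, AGGTCA, the repeated unit of sites of retinoic acid receptors, and TTCCNGGAA, a site of STAT3. E2F6, MAX and MGA belong to a repressor complex known to keep germ cell genes silent in ES cells. CACGTG and TTCCNGGAA read the same on both strands, the last bases of AGGTCA can also begin CACGTG, and no match shared bases with another in the promoters printed. Printed as examples are the promoters of Sycp3 and Tex12 of the synaptonemal complex and of Ddx4 and Mael of the piRNA pathway. That of Stra8, the largest rise, is printed beside them, though Stra8 is not among the 26 genes. The examples are not a typical sample of the 23. They run 5′ to 3′ along the gene's strand and end at the base before the start. Matches to the first 3 motifs or their reverse complements are in capitals. They lie at chr6:34920698-34920947 on the plus strand (Stra8), chr10:88459337-88459586 on the plus strand (Sycp3), chr9:50561269-50561518 on the minus strand (Tex12), chr13:112652311-112652560 on the minus strand (Ddx4) and chr1:166238745-166238994 on the minus strand (Mael).
Stra8: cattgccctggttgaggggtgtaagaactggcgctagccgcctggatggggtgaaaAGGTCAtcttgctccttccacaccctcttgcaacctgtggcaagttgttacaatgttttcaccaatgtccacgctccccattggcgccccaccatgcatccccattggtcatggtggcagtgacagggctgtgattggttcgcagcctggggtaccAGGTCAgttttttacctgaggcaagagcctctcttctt
Sycp3: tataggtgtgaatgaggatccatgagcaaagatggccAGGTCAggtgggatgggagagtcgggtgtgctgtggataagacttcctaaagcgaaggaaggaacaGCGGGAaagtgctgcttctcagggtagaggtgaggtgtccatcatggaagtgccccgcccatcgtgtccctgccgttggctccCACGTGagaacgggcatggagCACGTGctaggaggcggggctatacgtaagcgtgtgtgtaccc
Tex12: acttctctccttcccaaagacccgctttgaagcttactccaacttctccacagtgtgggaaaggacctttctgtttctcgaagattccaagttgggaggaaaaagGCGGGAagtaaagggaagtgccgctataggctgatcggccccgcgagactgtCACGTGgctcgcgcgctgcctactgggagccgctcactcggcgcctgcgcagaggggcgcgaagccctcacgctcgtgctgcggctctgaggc
Ddx4: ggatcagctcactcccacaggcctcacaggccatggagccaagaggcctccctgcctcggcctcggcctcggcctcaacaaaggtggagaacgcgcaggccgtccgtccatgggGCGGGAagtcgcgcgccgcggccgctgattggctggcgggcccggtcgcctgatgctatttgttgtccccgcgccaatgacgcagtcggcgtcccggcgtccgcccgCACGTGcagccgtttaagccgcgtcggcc
Mael: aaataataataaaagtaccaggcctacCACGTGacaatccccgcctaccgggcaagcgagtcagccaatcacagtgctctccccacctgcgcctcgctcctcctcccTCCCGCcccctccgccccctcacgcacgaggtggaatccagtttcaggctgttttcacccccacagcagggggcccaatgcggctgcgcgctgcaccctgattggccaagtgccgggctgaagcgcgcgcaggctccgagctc

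Stra8 held AGGTCA at 2 places, starting 194 and 38 bases before the start, and neither TCCCGC nor CACGTG. Sycp3 held CACGTG at 2 places, starting 64 and 43 bases before the start, with a TCCCGC match 147 bases and an AGGTCA match 213 bases before it. Tex12, Ddx4 and Mael each held 1 TCCCGC match, starting 145, 136 and 143 bases before the start, and 1 CACGTG, starting 93, 29 and 223 bases before it. Among the 23 promoters, CACGTG was found in 11 (47.8%) and TCCCGC in 10 (43.5%), and 16 (69.6%) held one or the other. Promoters with both motifs, such as those of Sycp3, Tex12, Ddx4 and Mael, were the smaller part of the 23. Those of Asz1, Dazl, Gpat2, Sohlh2, Syce1, Tdrd7 and Tex19.2 held neither. Of 46 promoters of tested genes in the same lists that were not called, 19.6% held CACGTG and 37% held TCCCGC, with 52.2% for either. Over all 10850 promoters of tested genes the shares were 8.28% for CACGTG, 29.4% for TCCCGC and 34.9% for either, and over the 27025 promoters of the reference table they were 6.05%, 16.9% and 21.5%. All genes called higher in d3ag6 were near the shares of tested genes, with 9.84% for CACGTG, 32.5% for TCCCGC and 39.0% for either among 305 promoters. Both motifs hold a CG pair, and the sets differed in the number of such pairs. The median was 18 in the 23 promoters, 12 in the 46 not called, 15 over tested genes and 6 over the reference table. What part this has in the shares was not tested. AGGTCA was in 13% of the 23 promoters, against 10.9% of tested and 13.8% of all promoters. TTCCNGGAA was in none of the 168 promoters of genes called lower in d3ag6 and in none of the 305 of genes called higher. It was in 0.912% of tested and 0.914% of all promoters, so rare that its absence from sets of this size says little. These are matches of letters, and binding was not measured.

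None of the 20 tested genes of PGC specification was called (limma; 0 higher and 6 lower at an unadjusted p under 0.05), with changes from -1.19 to 0.49 and a median of -0.28. Prdm14, a regulator of PGC specification, had 10.93 and 10.89 in d3ag6, against 10.95 and 11.06 in d6 female (change -0.10, SE 0.16). Tfap2c, its partner in the early network, had 11.45 and 11.40 in d3ag6, against 11.88 and 11.86 in d6 female, which did not overlap (change -0.44, adjusted p 0.14). Kit, the receptor that PGCs need to survive and migrate, had 11.74 and 11.12 in d3ag6, against 11.85 and 11.94 in d6 female (change -0.47, adjusted p 0.645). Among surface molecules of PGCs, the fucosyltransferase genes Fut4 and Fut9 were called opposite ways. Fut4 was below 4.81 on both d6 female arrays and on 1 d3ag6 array, so the size of its rise is uncertain. Fut4 had 4.67 and 4.97 in d3ag6, against 3.22 and 3.13 in d6 female (change 1.64, adjusted p 0.0105), and Fut9 had 6.41 and 5.62 in d3ag6, against 7.76 and 8.05 in d6 female (change -1.89, adjusted p 0.00773). The integrin genes Itgb3 and Itga6 rose by 0.79 and 1.53, so that 3 of 18 were higher and 1 lower, of which none was called without each array, the highest adjusted p being 0.0535 for Fut9 and 0.0922 for Fut4.

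Of 24 tested genes of naive pluripotency, 2 fell and none rose (0 higher and 7 lower at an unadjusted p under 0.05), with a median of -0.25. Both, Gbx2 and Tfcp2l1, are transcription factor genes that act under STAT3 in ES cells and are also on the LIF list. Tfcp2l1 had 9.44 and 9.71 in d3ag6, against 10.54 and 10.32 in d6 female (change -0.86, adjusted p 0.0363), and Gbx2 had 3.97 and 4.55 in d3ag6, against 5.6 and 5.78 in d6 female (change -1.43, adjusted p 0.021). Nanog had 9.77 and 8.72 in d3ag6, against 11.52 and 10.95 in d6 female, and was not called (change -1.99, SE 0.48, adjusted p 0.0617). Pou5f1, with 12.56 and 12.60 in d3ag6 and 12.81 and 12.90 in d6 female, and Sox2, with 12.10 and 12.04 in d3ag6 and 12.44 and 12.39 in d6 female, were bright in both groups and not called. No member of the naive list was called with 1 array left out.

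The LIF and STAT3 list held the most falls of the lists compared, 7 of 26 tested members, 26.9%, and no rise (3 higher and 10 lower at an unadjusted p under 0.05), with a median of -0.47. Over all genes 1.59% were lower. This list, too, was chosen with earlier results of these data known, so that its share is a description and no independent support. Without quantile normalization, 1 member was called higher. Beside Naprt, Bcl3, Vwa5a, Gbx2 and Tfcp2l1 they were Socs3 and Junb. Socs3, the feedback inhibitor that STAT3 induces, had 6.31 and 5.10 in d3ag6, against 8.99 and 9.35 in d6 female (change -3.46, SE 0.46, adjusted p 0.00818), and its 3 tested probe sets were called lower, with changes from -3.55 to -3.43. Its level was 3.14 and 3.48 in E12.5 PGCs and 9.52 and 9.70 in d3 cells, so that d3ag6 lay between those groups. Junb had 7.64 and 6.89 in d3ag6, against 9.06 and 9.05 in d6 female (change -1.79, adjusted p 0.0227). Stat3 itself had 8.24 and 8.49 in d3ag6, against 9.04 and 9.30 in d6 female, and was not called (change -0.81, adjusted p 0.0522). The LIF receptor gene Lifr overlapped, at 9.85 and 9.56 in d3ag6 and 9.63 and 9.94 in d6 female, and Klf4, a STAT3 target in ES cells, overlapped too, at 5.64 and 6.26 in d3ag6 and 6.13 and 5.92 in d6 female. The kinase genes Jak1 and Jak2 had changes of 0.80 and 0.61 (adjusted p 0.125 and 0.133). Naprt, Bcl3 and Vwa5a were called without each array, Socs3 had an adjusted p of up to 0.0552, and the list had 4 and 3 members called without d6 female replicates 1 and 2 and 5 and 3 without d3ag6 replicates 1 and 2.

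**Figure D4:**
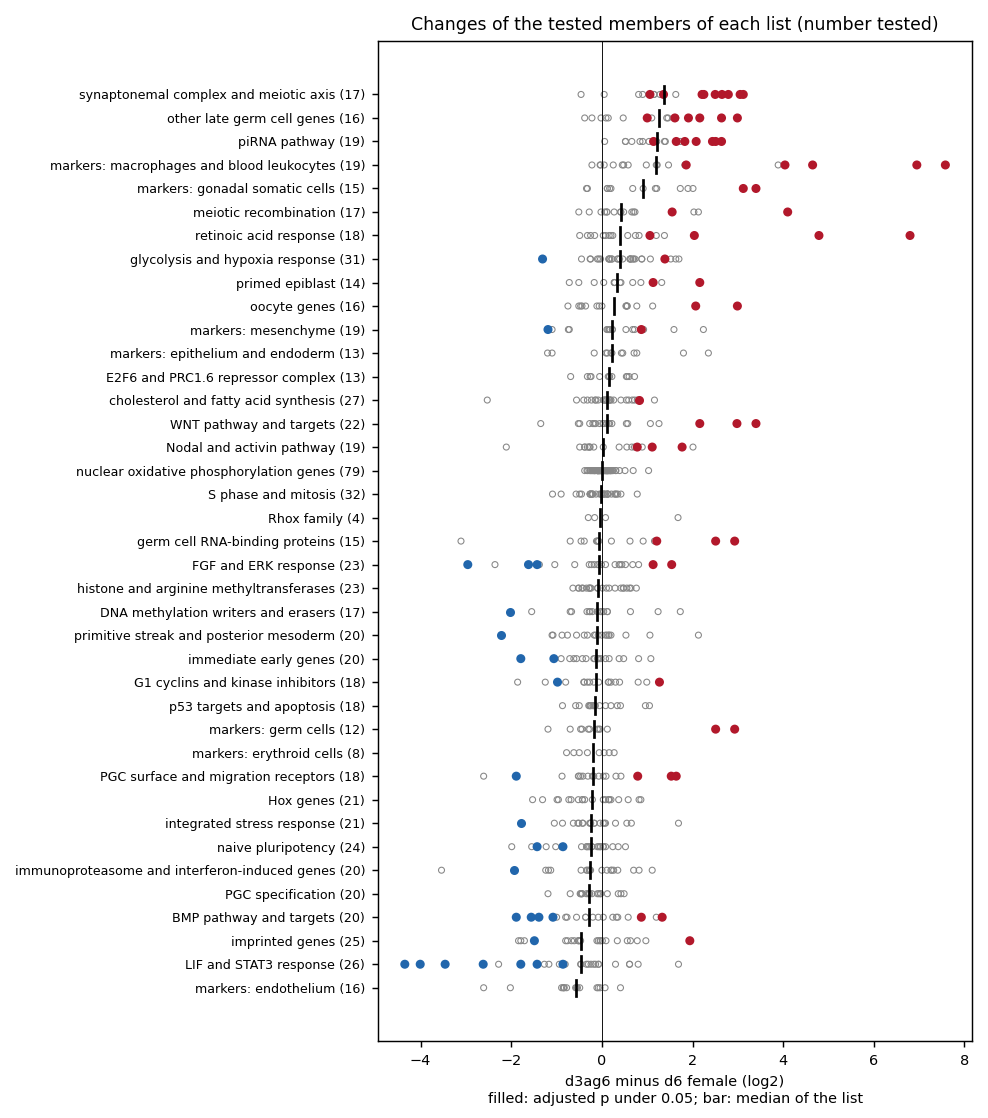
Change of each tested member (x axis, d3ag6 minus d6 female, log2) in each list, with lists in rows ordered by their median, which the black bar marks, and the number of tested members in brackets. Filled red points rose and filled blue points fell in d3ag6, open points were not called, and the lists of meiotic axis, other late germ cell and piRNA genes and the leukocyte markers have the highest medians (1.20 to 1.36), while the germ cell RNA-binding list is at -0.07 and the LIF list at -0.47.

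Of the other signalling lists, those of FGF and ERK and of BMP had calls both ways. The called shares of tested members were 21.7% and 30.0%, against 4.38% over all genes. At an unadjusted p under 0.05 (limma), 4 were higher and 6 lower in the FGF and ERK list, and 3 were higher and 6 lower in the BMP list. In the FGF and ERK list 3 of 23 fell and 2 rose: with Etv4, the feedback inhibitor genes Spry2, at 7.58 and 7.65 in d3ag6 and 9.24 and 9.22 in d6 female (change -1.62, adjusted p 0.0269), and Spry4 (change -1.43, adjusted p 0.0258) fell, and the receptor gene Fgfr3 (1.54) and the ligand gene Fgf5 (1.13) rose, Fgf5 from levels below 4.81 on the 4 arrays. The related ETS factor gene Etv5 was bright in both groups, at 11.77 and 12.06 in d3ag6 and 11.89 and 12.40 in d6 female, and was not called. In the BMP list 4 of 20 fell and 2 rose. Id1, an inhibitor of differentiation that BMP induces, had 6.61 and 7.43 in d3ag6, against 8.78 and 9.04 in d6 female (change -1.89, SE 0.29, adjusted p 0.0133). Id3 had 10.56 and 10.52 in d3ag6, against 11.59 and 11.66 in d6 female (change -1.08, SE 0.14, adjusted p 0.00728). Both differ from E12.5 PGCs, where Id1 had 11.41 and 11.67 and Id3 had 11.78 and 11.84. The target gene Msx2 and the ligand gene Bmp4 fell by 1.56 and 1.39, while Id4 and Bmp7 rose by 1.33 and 0.87. With an array left out, Etv4 was called in each fit, with adjusted p of 0.00939 at most, Spry2, Spry4, Fgfr3 and Fgf5 reached 0.164, 0.176, 0.192 and 0.259, and no gene of the BMP list was called in each, the highest values being 0.0622 for Id3 and 0.0753 for Id1.

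In the WNT list 3 of 22 rose and none fell (5 higher and 1 lower at an unadjusted p under 0.05), 13.6% called against 4.38% over all genes. Sp5, a direct target of the pathway, had 6.89 and 7.84 in d3ag6, against 4.64 and 4.13 in d6 female (change 2.98, SE 0.43, adjusted p 0.0105). Sfrp2, a secreted antagonist, had 6.71 and 6.77 in d3ag6, against 4.46 and 4.70 in d6 female (change 2.16, SE 0.23, adjusted p 0.00359), and was called without each array. Rspo1, a secreted amplifier made in the female gonad, had 5.61 and 6.34 in d3ag6, against 2.64 and 2.52 in d6 female (change 3.40, SE 0.74, adjusted p 0.0452). The widely used target Axin2 had 9.40 and 9.66 in d3ag6, against 8.16 and 8.76 in d6 female, and was not called (change 1.07, adjusted p 0.186). Sp5 and Rspo1 had adjusted p of up to 0.0812 and 0.244 with an array left out. In the Nodal and activin list 3 of 19 rose and none fell (6 higher and 3 lower at an unadjusted p under 0.05): Inha, the alpha subunit of inhibin, at 6.84 and 7.06 in d3ag6 and 5.14 and 5.22 in d6 female (change 1.77, adjusted p 0.00339), the receptor gene Acvr2a (1.11) and Smad3 (0.78). Inha was called without each array, and Acvr2a and Smad3 reached adjusted p of 0.229 and 0.245.

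Lists of earlier states and of the cell cycle held from 0 to 2 calls each. Evx1, a homeobox gene of the primitive streak, had 4.02 and 4.30 in d3ag6, against 5.98 and 6.77 in d6 female (change -2.22, SE 0.26, adjusted p 0.00524), the one call among 20 genes of streak and posterior mesoderm, and it was called without each array. None of 21 Hox genes was called (1 higher and 2 lower at an unadjusted p under 0.05), and 2 of 14 primed epiblast genes rose, Sfrp2 and Fgf5. Of 32 genes of S phase and mitosis none was called (1 higher and 4 lower at an unadjusted p under 0.05), with a median of -0.01. Of 18 tested genes of G1 cyclins and kinase inhibitors, 1 rose and 1 fell, 11.1% called against 4.38% over all genes, with a median of -0.13 (2 higher and 2 lower at an unadjusted p under 0.05). Rb1, the retinoblastoma protein that holds cells in G1, had 10.30 and 10.10 in d3ag6, against 8.88 and 8.98 in d6 female (change 1.27, SE 0.15, adjusted p 0.00525), and was called without each array. The cyclin gene Ccnd3 fell by 0.98 (adjusted p 0.0194), with values up to 0.145 when an array was left out, while the mean of its probe sets gave a change of 0.18.

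Of 25 imprinted genes, 1 rose and 1 fell, 8.0% called against 4.38% over all genes. Ascl2 had 5.32 and 5.48 in d3ag6, against 3.07 and 3.86 in d6 female (change 1.94, adjusted p 0.0354), and Plagl1 had 9.08 and 9.93 in d3ag6, against 10.96 and 11.03 in d6 female (change -1.49, adjusted p 0.0461). With an array left out they reached 0.235 and 0.219. Among 17 genes that write or erase DNA methylation, Gadd45a was the one call, 5.88%, which is near the share over all genes. Dnmt3l, the cofactor of new methylation, had 5.44 and 8.0 in d3ag6, against 4.51 and 5.47 in d6 female, and was high in replicate 2 of d3ag6, the array where Alb, Fgg and Ttr were high. It was not called (change 1.73, adjusted p 0.217), but had an adjusted p of 0.0312 without d3ag6 replicate 1. None of 13 genes of the E2F6 and PRC1.6 repressor complex was called (0 higher and 1 lower at an unadjusted p under 0.05). Max, one of its DNA-binding members, had 8.87 and 8.91 in d3ag6, against 9.50 and 9.65 in d6 female (change -0.69, adjusted p 0.196).

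Lists of metabolism and stress held from 0 to 2 calls each. Of 79 nuclear genes of oxidative phosphorylation none was called (2 higher and 0 lower at an unadjusted p under 0.05), with a median of 0.01 and changes from -0.38 to 1.03. Of 31 genes of glycolysis and the hypoxia response, 10 were higher and 1 lower at an unadjusted p under 0.05, with a median of 0.39, against 0.007 over all genes, and 1 rose and 1 fell in the adjusted test: P4ha2, a collagen prolyl hydroxylase, rose by 1.39 and the hexokinase gene Hk1 fell by 1.31. Hk1 had 10.84 and 10.73 in d3ag6, against 12.13 and 12.07 in d6 female (adjusted p 0.0398, and up to 0.218 with an array left out). Of 27 genes of cholesterol and fatty acid synthesis, Hsd17b7 rose by 0.82 (adjusted p 0.0303, and up to 0.219 with an array left out). Phgdh, of serine synthesis, had 8.34 and 9.21 in d3ag6, against 10.53 and 10.60 in d6 female (change -1.79, adjusted p 0.0265), the one call among 21 genes of the integrated stress response. The immediate early genes Junb and Ier2 fell, 2 of 20, 10.0%, against 1.59% lower over all genes, and none of 18 p53 targets was called (1 higher and 2 lower at an unadjusted p under 0.05). Phgdh and Ier2 reached adjusted p of 0.148 and 0.207 with an array left out.

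Some markers of macrophages and blood leukocytes were higher in d3ag6, and most were not called. Of 24 members, 19 were tested and 5 rose, 26.3%, and none fell (10 higher and 0 lower at an unadjusted p under 0.05), with a median of 1.20. Members dim in the other groups could enter the test through the d3ag6 arrays, and such members could hardly fall. Lyz2, for example, was below 4.81 on the d6 female, d3 and E12.5 arrays. The share, the lack of falls and the median are thus no independent support for a rise. The summed signal of the 24 members was 11.67 and 12.04 in d3ag6, against 10.13 and 10.42 in d6 female (log2), and 10.10 and 10.06 in E12.5 PGCs. Above 4.81 on both arrays were 18 members in d3ag6 and 11 in d6 female, and 0 members were listed at 0 on the 4 arrays. Lyz2, the lysozyme of macrophages, had 7.91 and 8.45 in d3ag6, against 3.96 and 4.32 in d6 female (change 4.04, SE 0.33, adjusted p 0.00122). Lyz1 had 9.26 and 9.56 in d3ag6, against 2.31 and 2.60 in d6 female (change 6.95, SE 0.98, adjusted p 0.00944), and Ctss, a lysosomal protease, had 8.56 and 9.13 in d3ag6, against 0.87 and 1.66 in d6 female (change 7.58, SE 1.39, adjusted p 0.0257). Lyz1 and Lyz2 are close paralogs, so that their probes may not tell them apart. With dim values set to 4.81 these 3 changes were 3.37, 4.60 and 4.03. C1qc, of complement, and Tyrobp, an adaptor of myeloid receptors, rose by 4.65 and 1.86. C1qb had 6.09 and 6.88 in d3ag6, against 2.17 and 3.02 in d6 female, and was not called (change 3.89, adjusted p 0.142).

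Other defining genes of these cells were not called. Ptprc, an antigen of all leukocytes, was too dim to be tested, at 5.35 and 3.72 in d3ag6 and 1.82 and 3.53 in d6 female. The myeloid transcription factor gene Spi1 had 6.18 and 6.28 in d3ag6, against 6.03 and 6.33 in d6 female (change 0.05), and Itgam was below 4.81 on the 4 arrays. Csf1r, the receptor of macrophage growth factor, had 7.88 and 8.0 in d3ag6, against 6.98 and 6.95 in d6 female (change 0.98, adjusted p 0.0889). Of the 5 called markers, Lyz2 was called without each array, while Lyz1 and Ctss had adjusted p of up to 0.0747 and 0.168, and the list had 3 and 4 members called without d6 female replicates 1 and 2 and 3 and 1 without d3ag6 replicates 1 and 2. The part of such cells in the germ cell gene results was not tested.

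**Figure D5:**
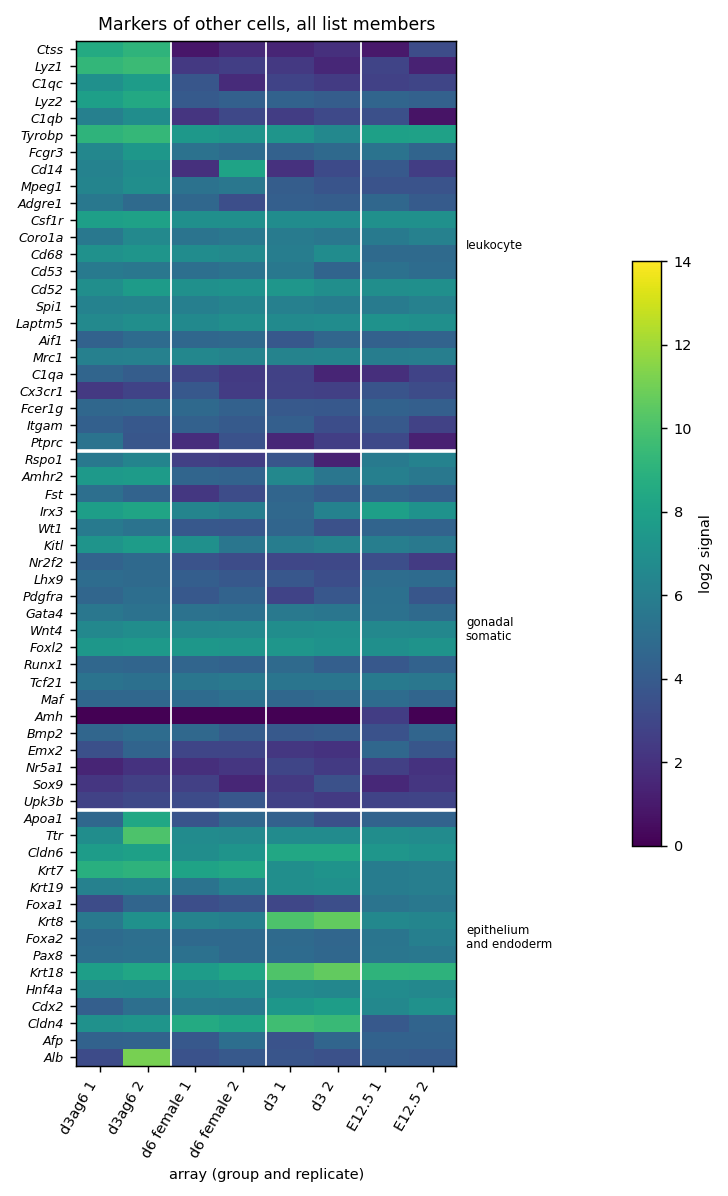
Level (colour, log2 signal) of each measured member of the leukocyte, gonadal somatic and epithelium and endoderm marker lists, one row a gene and one column an array, with d3ag6 first, then d6 female, d3 and E12.5 PGCs. Ctss, Lyz1, C1qc and Lyz2 are bright on both d3ag6 arrays, and Alb, Ttr and Apoa1 on d3ag6 replicate 2.

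Of 15 tested markers of gonadal somatic cells, the partner cells of the aggregate, 2 rose and none fell (6 higher and 0 lower at an unadjusted p under 0.05), with a median of 0.91. The summed signal of the 21 measured members was 10.27 and 10.50 in d3ag6, against 9.57 and 9.34 in d6 female (log2), with 9.91 and 9.66 in E12.5 PGCs. Amhr2, the receptor of anti-Mullerian hormone, had 7.53 and 7.68 in d3ag6, against 4.54 and 4.44 in d6 female (change 3.12, SE 0.32, adjusted p 0.00264), and was called on both of its probe sets and without each array. Day 3 cells had 6.56 and 5.48 for Amhr2 and E12.5 PGCs 6.06 and 5.58. The other was Rspo1, given above. Wt1, of supporting cells and their precursors, had 5.79 and 5.31 in d3ag6, against 3.84 and 3.80 in d6 female, and was not called (change 1.73, adjusted p 0.13). Foxl2, the granulosa cell factor, had 7.39 and 7.57 in d3ag6, against 7.43 and 7.30 in d6 female, which overlap (change 0.12). Nr5a1 had 1.44 and 2.07 in d3ag6 and 1.89 and 2.22 in d6 female, and Amh was listed at 0 on the 4 arrays. Above 4.81 on both arrays were 10 of the 21 members in d3ag6 and 7 in d6 female. What part such cells have in the rise of Rspo1 or Inha was not tested.

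Lists of markers of other tissues held from 0 to 2 calls each. None of 8 erythroid genes was called (0 at an unadjusted p under 0.05), with a summed signal of 8.11 and 8.02 in d3ag6 and 8.08 and 8.25 in d6 female. None of 16 endothelial genes was called (0 higher and 6 lower at an unadjusted p under 0.05), with a summed signal of 10.89 and 11.24 in d3ag6 and 11.92 and 11.24 in d6 female, highest on the array where Cdh5 and Pecam1 were high. In mesenchyme, with 19 tested, the collagen gene Col6a1 rose by 0.87 and the matrix gene Sparc fell by 1.19, with adjusted p of up to 0.191 and 0.282 when an array was left out, and the summed signal was 12.34 and 12.30 in d3ag6 and 13.10 and 12.63 in d6 female. None of 13 epithelium and endoderm genes was called (3 higher and 2 lower at an unadjusted p under 0.05), and their summed signal was 10.57 and 12.39 in d3ag6 and 10.53 and 10.67 in d6 female. Ttr and Apoa1 were high on d3ag6 replicate 2, where Alb and Fgg were high too, and had SDs of 2.3 and 2.57 in d3ag6.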

How the data were processed

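Per the labels, each array was hybridised with amplified cDNA of sorted cells. The deposited file held 45101 probe sets with a value for each array, and its 64 control probe sets were left out. The deposited values are taken as log2, since no array went beyond 13.93 and between 2.07% and 2.3% of an array's values were exactly 0. How the authors summarised and normalized the probes is not given in the sources used here, and nor is the log base. The number of arrays limits the precision. Because array medians ran from 4.73 to 4.87, values were quantile normalized between the 12 arrays (limma 3.58.1, R 4.3.3). By GEO's platform annotation, 34958 probe sets had 1 gene, 932 several and 9211 none, and 34754 were matched to RefSeq genes (GRCm38.p6) by gene ID.

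Probe sets above 4.81 on at least 2 of 12 arrays were fitted with limma, 1 mean per group over all 12 arrays, 6 residual degrees of freedom, eBayes, two-sided, Benjamini-Hochberg over 25610 probe sets. The 12 arrays include E9.5 PGCs and male day 6 PGCLCs, 2 each, whose replicates differ in array code per the labels, while the other 8 arrays share 1 code. Replicate differences of these groups correlated at 0.575, and their median absolute size was 0.345 in E9.5 PGCs and 0.331 in male day 6 PGCLCs, against 0.212 in d3ag6 and 0.231 in d6 female, so that the residual spread includes the difference between codes. An adjusted p under 0.05 is a call. A gene is read from its probe set with the highest mean. Named are the 15 largest rises and falls, with values below 4.81 set to it, among genes also called without each of the 4 arrays and with groups that do not overlap, then list members with calls before others, and Stra8, Sycp3, Ddx4, Dazl, Prdm1, Dppa3, Nanog and Xist. The comparison, lists, motifs and tests were chosen with earlier results of these data known. Summed signals add a list's values off the log scale. On simulated data with 200 of 25610 probe sets changed, 13% of the 2-fold changes and 86% of the 4-fold changes were recovered, and 2.9% of the 102 calls were false. The simulation drew independent normal noise and changed only probe sets with a mean above 4.81. It held no array that stood apart, so these rates need not hold for the measured arrays. Alternatives varied the filter, normalization, arrays fitted, probe sets per gene, variance model, replicate block, floor, fold rule and each array. Other steps used numpy 2.4.6, pandas 2.3.3 and matplotlib 3.10.9 under Python 3.11.15. Tsix was not analysed here.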

Additional observations from a re-analysis of the deposited data

How the results depend on the processing

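Of the 901 probe sets called, 574 higher and 327 lower in d3ag6, the counts depended most on the filter and on the arrays fitted. With no filter 275 were called (182 higher, 93 lower), with the 4 arrays normalized and fitted alone 367 (204 and 163), with the 4 arrays fitted alone 373 (208 and 165), and with the probe sets of a gene averaged 573 genes (326 and 247). Leaving out 1 array gave 134 to 246 called, 68 to 175 higher and 49 to 71 lower. The other settings gave 713 to 1270. With the 8 arrays of 1 array code 1197 were called (748 and 449). With the replicate block 1047 were called (637 and 410). The labels tie no replicate number to a shared cell line or day. Differences between replicates correlated at 0.14 between d3ag6 and d6 female, at 0.161 and 0.183 between each of them and E12.5, and at -0.188 and -0.185 between each of them and d3, which with 2 arrays a group does not settle whether the numbers pair the arrays. Of 131 genes named and tested 130 were on the same side of the threshold under the block. Of these genes 128 were on the same side as deposited, 94 with no filter (37 lost their call) and 89 with the 4 arrays fitted alone (39 lost it). Over all these settings none of the called genes named lost its direction except Fgf5, at 0.0 when dim values were set to the median, and Ccnd3, at 0.18 for the mean of its probe sets. The cause of these changes was not tested, except that fitting 4 arrays leaves fewer samples. Of the called genes 103 had a group mean below 4.81, where the size of a change is uncertain.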
